A study of Mus musculus with 4 samples.

Results

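The serpins are a family of related proteins, most of which inhibit serine proteases and some of which inhibit cysteine proteases or no protease at all. An inhibitory serpin offers its reactive centre loop as a bait, is cut by the protease and then folds over, trapping the enzyme in a complex that cannot be reused. Their genes are sorted by sequence into clades, shown by the letter in the symbol: clade A holds the secreted antitrypsin-like proteins made mainly by liver, clade B the ovalbumin-like proteins that mostly stay inside the cell and are common in squamous epithelium, clade E secreted protease inhibitors such as protease nexin 1, and clade H the collagen chaperone HSP47. Members were found as rows of the expression table whose symbol is Serpin followed by a clade letter from a to i and a digit, and 63 of the 24444 genes in the table are described. The choice used symbols and no measured value.

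Expression was measured by RNA sequencing of the poly(A) fraction in 4 libraries, all from oesophageal cells in culture, strain C57BL/6J. The 2 wild-type libraries came from untreated cells without an editing cassette, and the 2 E79Q libraries from cells labelled HET, which carry the Nfe2l2-E79Q cassette introduced by CRISPR/Cas9 microinjection. Nfe2l2 encodes NRF2, the transcription factor of the antioxidant response, and the series title describes the mouse as conditional with a mutation derived from a tumour. The labels do not say which Cre or promoter was used, or what the word SV40 in every column name refers to. Nor do they say whether libraries of 1 group came from separate animals or cultures. The p-values therefore concern only these libraries, and the spread behind them is largely borrowed across genes. The series' design text names a human breast cancer line and another gene, which conflicts with all sample labels, and the labels were followed.

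The oesophageal label was checked against markers of stratified epithelium. Krt5 lay at 15.85 and 15.80 in wild type and 15.79 and 15.84 in E79Q, and all 10 markers were high enough to test. Of the immune markers Ptprc, Adgre1 and Cd3e were at the floor in all libraries, as were the hepatocyte markers Alb, Ttr and Fgb and the fibroblast marker Lum, and none of the 5 endothelial markers was high enough to test. Other markers of non-epithelial cells were measured: 7 of the 8 fibroblast markers were above the floor, with Col1a1 at 9.04 and 9.12 in wild type, the muscle marker Acta2 was at 10.10 and 10.13, and the immune marker Cd68 at 8.63 and 8.54. Xist differed between the groups, at 11.99 and 12.17 in wild type against 7.30 and 7.12 in E79Q, while Y-linked genes were present in all libraries. Of these Eif2s3y (9.81 to 9.92) was not called, nor was Kdm5d, but Ddx3y rose by 0.54 ± 0.07 and Uty by 0.31 ± 0.07 in E79Q (limma adjusted p = 1.14e-05 and 0.00158). The labels do not give the sex of the animals, and the part of these differences in the serpin results was not tested. Nfe2l2 itself was not called, at -0.10 ± 0.05 (limma adjusted p = 0.154), and, the allele being a substitution, does not check the labels. Keap1, the adaptor that targets NRF2 for degradation, fell by 0.18 ± 0.05 (limma adjusted p = 0.0151).

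Promoter sequences are shown first for the 4 measured members of the clade B cluster on chromosome 1, because that cluster holds Serpinb2 and Serpinb10, the members with the largest rises on the log2-like scale, and shares a sequence feature. The RefSeq table (build GRCm38.p6; the deposited data list mm9, so these positions are not those of the authors' build) had promoter windows, 250 bases before to 50 after a transcription start, for 53 of the 63 members and 10 of the 11 tested. Each line gives the 250 bases before the first listed start, 5′ to 3′, with every match to TGANTCA in capitals. TGANTCA is a relaxed form of the element of AP-1 (the FOS and JUN transcription factors), which usually has G or C at N. The matches printed read TGAATCA in Serpinb5, Serpinb2 and Serpinb10 and TGAGTCA in Serpinb8.
Serpinb5 (chr1:106860925-106861174, plus strand): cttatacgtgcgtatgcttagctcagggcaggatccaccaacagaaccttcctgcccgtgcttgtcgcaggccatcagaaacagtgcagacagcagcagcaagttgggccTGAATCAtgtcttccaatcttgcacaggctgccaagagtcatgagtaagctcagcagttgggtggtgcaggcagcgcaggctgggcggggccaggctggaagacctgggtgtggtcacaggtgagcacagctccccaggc
Serpinb2 (chr1:107511173-107511422, plus strand): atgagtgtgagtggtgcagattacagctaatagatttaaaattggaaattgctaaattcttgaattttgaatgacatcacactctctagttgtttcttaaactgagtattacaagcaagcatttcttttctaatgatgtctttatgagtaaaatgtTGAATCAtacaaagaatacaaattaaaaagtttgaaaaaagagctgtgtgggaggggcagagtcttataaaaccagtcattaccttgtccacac
Serpinb10 (chr1:107528753-107529002, plus strand): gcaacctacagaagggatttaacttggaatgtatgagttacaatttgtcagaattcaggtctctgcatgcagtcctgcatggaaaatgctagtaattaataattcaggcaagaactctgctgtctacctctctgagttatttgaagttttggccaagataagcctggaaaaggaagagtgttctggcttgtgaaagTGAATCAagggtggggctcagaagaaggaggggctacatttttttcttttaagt
Serpinb8 (chr1:107589756-107590005, plus strand): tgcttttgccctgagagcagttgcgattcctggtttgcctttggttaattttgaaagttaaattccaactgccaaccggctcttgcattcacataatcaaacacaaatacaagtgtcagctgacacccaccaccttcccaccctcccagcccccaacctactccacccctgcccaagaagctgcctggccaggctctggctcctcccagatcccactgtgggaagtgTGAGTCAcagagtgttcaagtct

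The match began 140 bases before the start of Serpinb5, 94 before that of Serpinb2, 54 before that of Serpinb10 and 23 before that of Serpinb8. Serpinb8 held another match 14 bases after its start. TGANTCA reads the same on both strands. It lay in the windows of 7 of the 11 cluster genes with an entry, the other matches being in Serpinb12, Serpinb11 and Serpinb7. It also lay in 4 of the 18 chromosome 12 members with an entry, Serpina1a, Serpina1b, Serpina1c and Serpina1d, all at the floor. The clade B cluster on chromosome 13 had it in 0 of 14 members with an entry, and the members elsewhere in 0 of 10. Of all 32851 windows 7.81% held it, and of the 8525 tested genes with an entry 6.06% did. The neighbouring genes descend from shared ancestors, so their promoters are not independent samples of sequence.

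The core of the antioxidant response element bound by NRF2 and its MAF partners (TGACNNNGC, both strands) was found in 1 of the 10 tested members with an entry, Serpinb6a, 181 bases before one of its starts, against 12.4% of all windows and 17.1% of the tested genes with an entry. TGACNNNGC can overlap TGANTCA, as both may begin with TGAC. A match describes letters in the window and not a bound site, and these windows cover little of a gene's regulatory sequence.

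**Figure D1:**
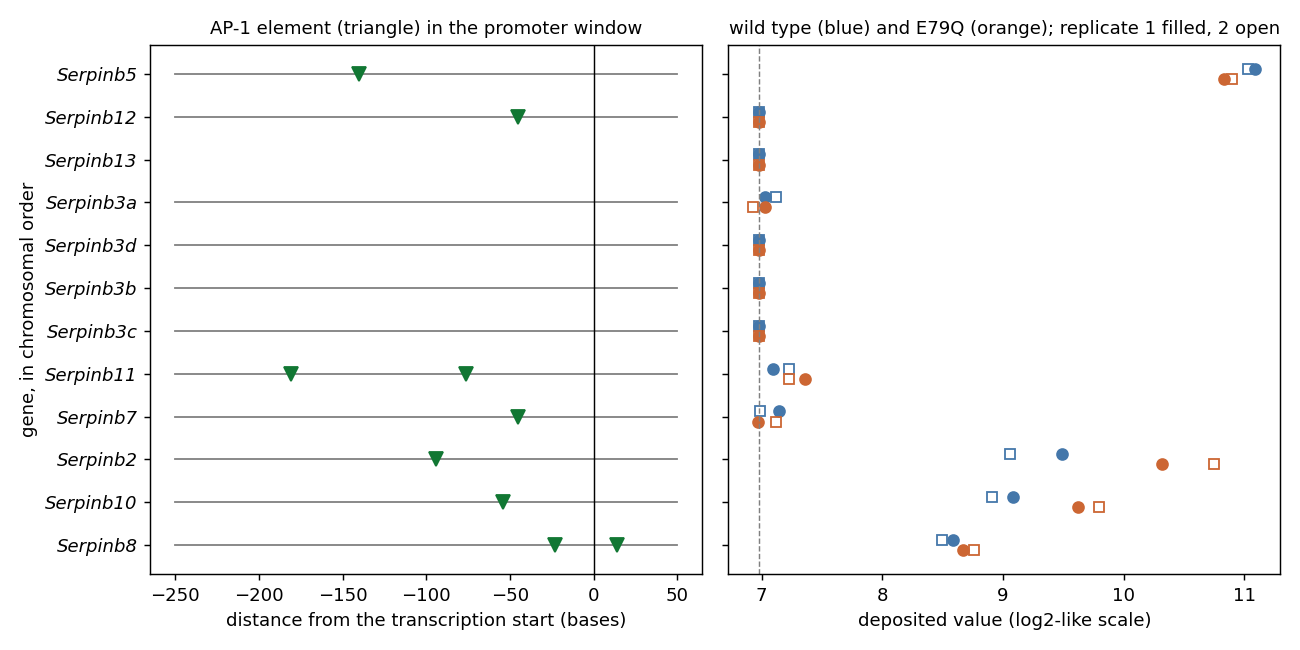
The clade B cluster of chromosome 1 in gene order. Left, TGANTCA matches (triangles) by distance in bases from the first listed start, with a grey line for each promoter window; right, deposited values on a log2-like scale in wild type (blue) and E79Q (orange), with the floor dashed. Matches fall in 7 genes. Serpinb5 at one end and Serpinb2, Serpinb10 and Serpinb8 at the other lie between 8.49 and 11.09, and no other gene of the cluster exceeds 7.36.

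Values are variance-stabilised expression on a log2-like scale, on which a gene without reads sits at a floor of 6.98. Of the 63 members, 33 were at the floor in all 4 libraries and 30 were above it in at least 1 library. Only 11 passed the test's filter, a value of at least 7.90 (1 above the table's lowest value) in at least 2 libraries. By clade, 9 of the 27 clade B genes were tested, together with Serpine2 and the single clade H gene. None of the 26 clade A genes was tested, nor any gene of clades C, D, F, G and I.

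Of the 11 tested members, 4 rose and 2 fell in E79Q (limma adjusted p under 0.05 over all 10857 genes tested). That is 54.5% of the members, against 40.4% of all genes tested (21.5% higher and 18.9% lower). The 4 that rose were all of clade B: Serpinb2, Serpinb10, Serpinb9b and Serpinb1a. The 2 that fell were Serpinh1 and the clade B gene Serpinb5. Other scalings turned the balance over all genes, to 2048 higher and 2313 lower after median centring and 2155 and 2269 after quantile normalisation, from 2333 and 2055, while the members stood at 4 higher and 3 lower under both. Serpinb9b passed the filter only through its E79Q libraries, so it had to differ. Without genes that passed through 1 genotype only, a count added after seeing the data, 3 members rose and 2 fell of 10, against 39.5% called of 10598 genes, and 3 of 10 had a called difference of at least 0.5, against 4.38%. The groups did not overlap in 11 of 11 members, against 79.2% of all genes tested. As the deposited values were centred on the replicate number, no overlap means only that both pair differences share a sign, here and below. Of the 11, 4 were called with a difference of at least 0.5 in size, against 4.87%. The median size of a difference was 0.20 among tested members and 0.12 among all genes tested, and the signed medians were 0.10 and 0.01. Differences are E79Q minus wild type, with the moderated SE over 2 replicate pairs, and with 2 pairs no exact test can give a two-sided p below 0.5.

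**Figure D2:**
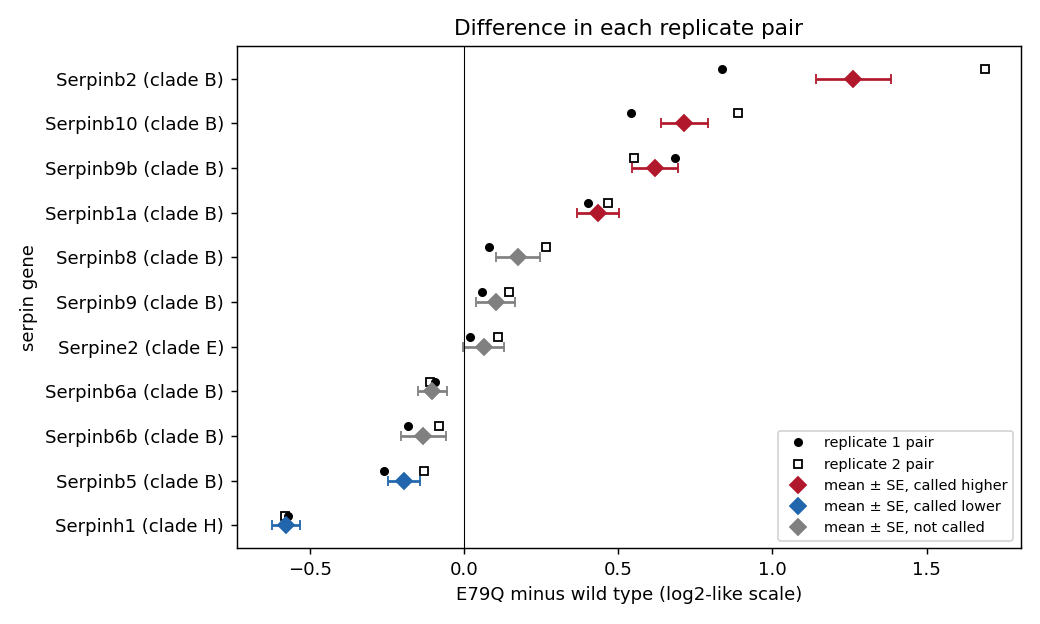
E79Q minus wild type on the log2-like scale for the 11 tested serpins, with diamonds for the mean ± SE and black symbols for each replicate pair. The 4 serpins called higher are of clade B, as are 9 of the 11 drawn. Every serpin drawn has the same sign in both pairs, as do 79.2% of all genes tested.

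Serpinb2 encodes plasminogen activator inhibitor 2, which inhibits urokinase and is abundant in stressed squamous epithelium. Its value was 9.49 and 9.06 in wild type and 10.32 and 10.75 in E79Q. Both E79Q libraries lay above both wild-type libraries, and the libraries of replicate 2 stood further apart than those of replicate 1: the difference was 0.84 in pair 1 and 1.69 in pair 2. Over both pairs Serpinb2 rose by 1.26 ± 0.12 (limma adjusted p = 8.03e-07), the 27th largest rise among the 10857 genes. As normalised counts, obtained by undoing the variance stabilisation, the ratio was 3.15. The call was lost when variances far from the trend were treated as outliers (robust empirical Bayes, adjusted p = 0.195).

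Serpinb10 lies next to Serpinb2 and encodes bomapin, a clade B serpin known from blood cells. It lay at 9.08 and 8.91 in wild type and 9.62 and 9.80 in E79Q. The groups did not overlap, and the pairs again differed, by 0.54 and 0.89, with the larger difference in replicate 2. The rise was 0.71 ± 0.08 (limma adjusted p = 2.01e-06), a 2.09-fold ratio of normalised counts. Annotated transcripts of Serpinb10 share 7.52% of their 31-base words with transcripts of Serpinb2 and with no other gene. None of the words of the 2 protein-coding Serpinb2 transcripts was found in another gene, so the shared words lie in Serpinb2 transcripts annotated as not coding. How far reads of Serpinb2 were counted for Serpinb10 was not tested.

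Serpinb8, the next gene along, encodes an inhibitor of furin-like proteases. It was measured at 8.59 and 8.49 in wild type and 8.67 and 8.76 in E79Q. Its difference of 0.17 ± 0.07 was not called (limma adjusted p = 0.0632). Its difference was 0.22 without replicate 1 of either genotype, and the centring makes these values equal.

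Serpinb5, at the far end of the cluster, encodes maspin, an epithelial serpin that does not inhibit proteases. It was the most abundant gene of the cluster, at 11.09 and 11.03 in wild type and 10.83 and 10.90 in E79Q. Both E79Q libraries lay below both wild-type libraries. Serpinb5 fell by 0.20 ± 0.05 (limma adjusted p = 0.00739), to a ratio of normalised counts of 0.858, and 29.9% of all tested genes had a larger difference in size. The 4 tested genes whose promoters carry a TGANTCA match thus had 2 rises, 1 fall and 1 difference that was not called.

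The rest of the cluster was at or close to the floor. Serpinb12, Serpinb13, Serpinb3b, Serpinb3c and Serpinb3d were at the floor in all libraries, although Serpinb12 and Serpinb13 are known from differentiated squamous epithelium. Serpinb3a had 2 reads in wild-type replicate 2 and none in the others, as its values are exactly those of such a pattern. Serpinb11 reached 7.36 in E79Q replicate 1, and its groups overlapped. Serpinb7 lay between 6.97 and 7.15.

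Of the clade B genes on chromosome 13, Serpinb9b and Serpinb1a rose and 3 others were not called. Serpinb9b is a relative of Serpinb9, the mouse inhibitor of the cytotoxic protease granzyme B. Its values were 7.74 and 7.81 in wild type and 8.42 and 8.36 in E79Q, so that both E79Q libraries were higher, by 0.69 in pair 1 and 0.55 in pair 2. The rise was 0.62 ± 0.07 (limma adjusted p = 8.00e-06), and the ratio of normalised counts was 3.33, above that of Serpinb2, since the scale compresses changes of low genes. Serpinb9 itself stood at 9.13 and 9.09 in wild type and 9.19 and 9.24 in E79Q, a difference of 0.10 ± 0.06 that was not called (limma adjusted p = 0.218).

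Serpinb1a, a counterpart of the human inhibitor of neutrophil elastase and cathepsin G, was measured at 8.33 and 8.30 in wild type, and its E79Q values were 8.74 and 8.77. The pairs were close to each other, at 0.40 and 0.47. The gene rose by 0.43 ± 0.07 (limma adjusted p = 0.000122), a 1.85-fold ratio of normalised counts. Its paralogue Serpinb1b, just under the filter, was at 7.74 and 7.65 in wild type and 7.79 and 7.88 in E79Q and was not tested. The transcripts of Serpinb1a share 10.6% of their 31-base words with other genes, and those of Serpinb9b 11.0%, so a part of the reads of both could be assigned to close copies.

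Serpinb6a, an intracellular inhibitor of trypsin-like proteases, was the most abundant clade B member. Its values of 11.48 and 11.49 in wild type and 11.39 and 11.38 in E79Q did not overlap. The difference of -0.10 ± 0.05 was not called (limma adjusted p = 0.0968), but it was called lower after median centring (-0.12, adjusted p = 0.0452), after quantile normalisation (-0.13, adjusted p = 0.0308) and without replicate 1 of either genotype (-0.11, adjusted p = 0.0409 without the wild-type library and 0.0398 without the E79Q library). Annotated transcripts of Serpinb6a share 41.4% of their words with other genes, most of all with Nqo2, so its count is uncertain. Serpinb6b was at 8.27 and 8.22 in wild type and 8.08 and 8.13 in E79Q. Its difference of -0.13 ± 0.07 was not called (limma adjusted p = 0.164).

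Serpine2, of clade E, encodes protease nexin 1, a secreted inhibitor of thrombin and urokinase. It lay at 8.86 and 8.82 in wild type and 8.88 and 8.92 in E79Q, with the E79Q libraries slightly above both wild-type libraries. Its difference of 0.06 ± 0.07 was not called (limma adjusted p = 0.472).

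Serpinh1 encodes HSP47, a serpin without inhibitory activity that holds procollagen in the endoplasmic reticulum while it folds. It was the most abundant serpin, at 12.60 in both wild-type libraries and 12.03 and 12.02 in E79Q. The pairs agreed closely, at -0.57 and -0.58. Serpinh1 fell by 0.58 ± 0.04 (limma adjusted p = 6.63e-08), to a ratio of normalised counts of 0.657, and only 159 of the 10857 tested genes had a lower difference.

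**Figure D3:**
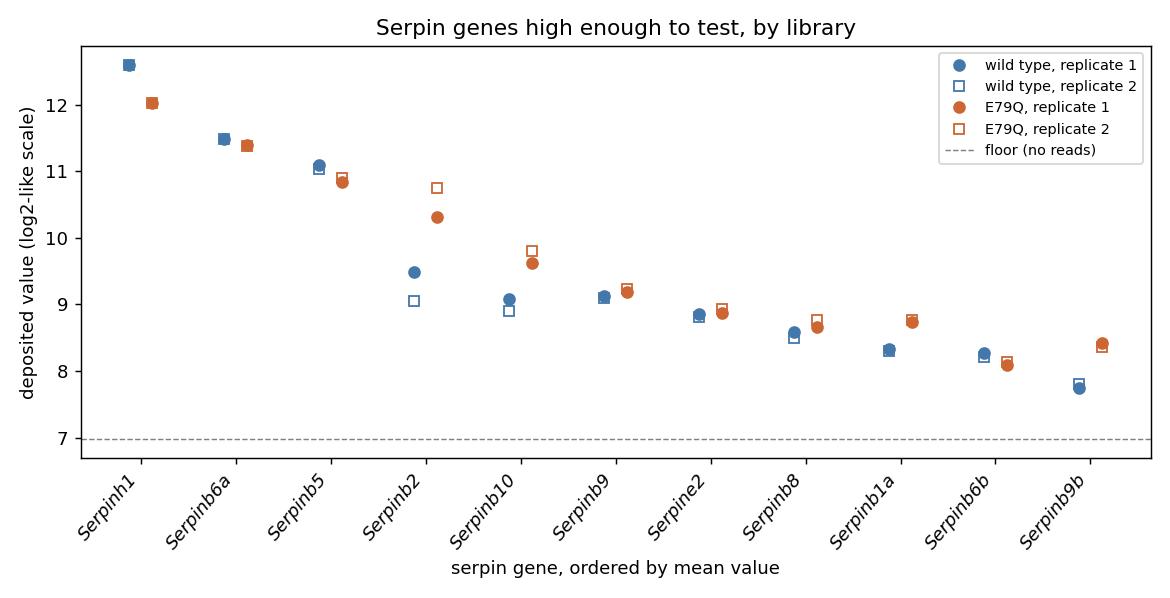
Deposited values of the 11 tested serpins in each library on a log2-like scale, wild type in blue and E79Q in orange, with the floor dashed. Serpinh1 is highest in all libraries, and the 4 libraries of Serpinb2 are the most spread, from 9.06 to 10.75.

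Levels of different serpins were compared as normalised counts per kilobase of the longest coding transcript in GENCODE M21. In wild type the mean level was 2621 for Serpinh1, 1586 for Serpinb6a and 708 for Serpinb5. Serpinb10 followed with 252 and 207 in the replicates and Serpinb2 with 244 and 156, and the ranges overlap. Each gene was centred on the replicate number on its own, so the order of genes within a library is not secure. The level of Serpinb10 also rests on the length of its single annotated coding transcript, 1265 bases. In E79Q the means were 1722 for Serpinh1 and 1467 for Serpinb6a. There Serpinb2 reached 521 and 740, Serpinb5 stood at 592 and 623, and Serpinb10 at 440 and 517. In the centred values Serpinb2 thus lay below Serpinb5 in replicate 1 and above it in replicate 2 of E79Q, and their order is not settled. The other tested members lay between 12.1 and 109 in wild type, with Serpinb9b lowest.

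**Figure D4:**
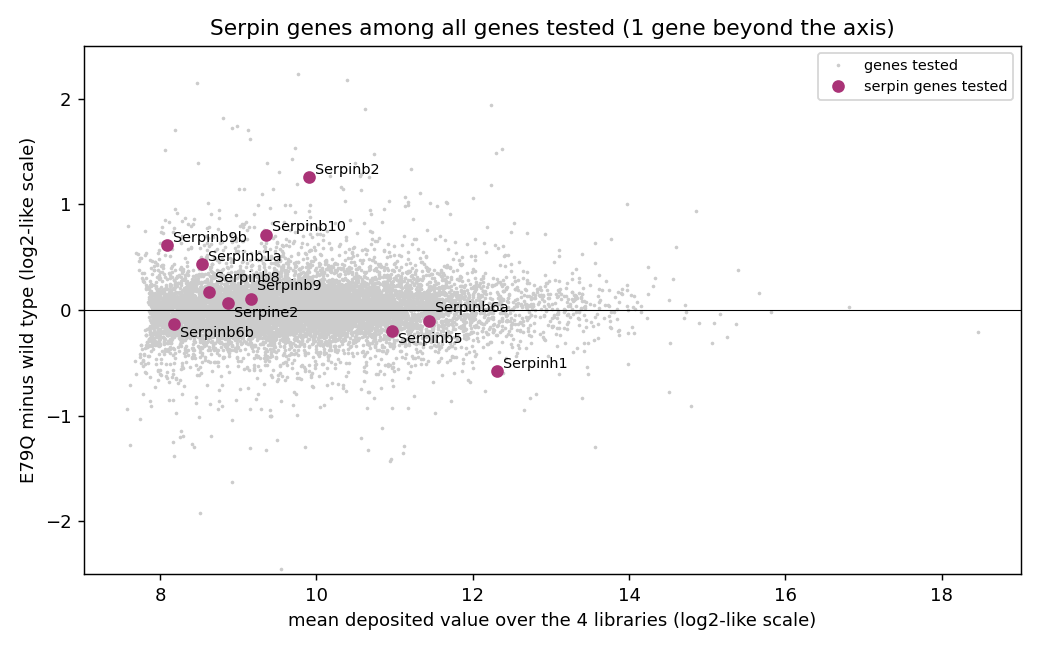
E79Q minus wild type against the mean deposited value, both on the log2-like scale, for the 10857 genes tested (grey) and the 11 serpins (purple), with 1 gene outside the axis. Serpinb2 lies near the upper edge and Serpinh1 below most genes of its level.

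Among the 19 members above the floor that could not be tested, 11 reached at least 0.2 above it in some library. The highest was Serpina3i, at 7.79 and 7.80 in wild type and 7.88 and 7.87 in E79Q, just under the filter, followed by Serpinb1b and by Serpina3h (7.64 in both wild-type libraries and 7.56 in both E79Q libraries). The Serpina3 genes are near copies, and Serpina3h and Serpina3i share 39.8% and 26.7% of their 31-base words with other genes, so neither value is secure. Serpina9 lay at 7.56 and 7.59 in wild type and 7.29 and 7.27 in E79Q. Serpina1e, an antitrypsin gene, was at the floor in wild type (6.98 in both libraries) and at 7.25 and 7.24 in E79Q, but it shares 54.2% of its words with its copies. With no filter, Serpina9 was called lower (limma adjusted p = 0.0201) and Serpina1e higher (limma adjusted p = 0.0360).

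Serpina3g, a serpin of haematopoietic cells, was at 7.18 and 7.41 in wild type and 7.18 and 6.95 in E79Q. Serpinf1, the anti-angiogenic factor PEDF, was at 7.16 and 7.01 in wild type and 7.29 and 7.43 in E79Q. Serping1, the C1 inhibitor of complement, lay between 7.03 and 7.26, and Serpinb6c between 7.13 and 7.39. Serpini1, neuroserpin, was at 7.42 and 7.53 in wild type and 7.32 and 7.21 in E79Q. None of these 5 was called without a filter either. The other 8 stayed within 0.2 of the floor, and for Serpina12 (1 read in E79Q replicate 1) and Serpinb1c (2 reads in wild-type replicate 1) the values are exactly those of reads in a single library.

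Genes that act with serpins were read from the same fit, in lists drawn up with earlier results of these data known. Each count stands beside the share of all genes tested, of which 21.5% rose and 18.9% fell. In the plasminogen activation list, 1 gene rose and 3 fell of 7 tested. Urokinase itself, Plau, a target of the Serpinb2 protein, fell by 0.46 ± 0.05 (11.50 and 11.49 in wild type, 11.03 and 11.04 in E79Q). Its receptor gene Plaur rose by 0.71 ± 0.10 (9.89 and 9.56 against 10.27 and 10.60). Lrp1, the endocytic receptor that clears serpin complexes, fell by 0.52 ± 0.05, and S100a10, which binds plasminogen at the cell surface with annexin A2, fell by 0.19 ± 0.05. These genes were each called on their own (limma adjusted p at most 0.00504).

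In the list of serine proteases of epithelium, which also holds the tissue factor gene F3, 5 rose and 8 fell of 15. That is a larger share than the 40.4% called among all genes tested. Of the 15, 2 passed the filter through 1 genotype only. Without such genes 4 rose and 8 fell of 13, against 39.5% called among all genes. Tmprss11e, a membrane protease of squamous epithelium, fell by 0.77 ± 0.05 and Tmprss2 fell by 0.67 ± 0.06, while the kallikrein gene Klk10 rose by 0.69 ± 0.07. F3, whose product is a cofactor and not itself a protease, rose by 0.76 ± 0.08. In the list of lysosomal and granule proteases, which also holds the caspase genes Casp1 and Casp8, 2 rose and 1 fell of 12. That is a smaller share than among all genes. Ctsc, the cathepsin that activates granule proteases, rose by 0.52 ± 0.06 and Ctsb, cathepsin B, by 0.12 ± 0.05. The gene that fell was Casp8, an initiator caspase and not a lysosomal or granule protease, by 0.26 ± 0.05. Ctsg, Gzmb and Elane, targets of the Serpinb1, Serpinb6 and Serpinb9 proteins in immune cells, were not high enough to test. Other protease inhibitors had 3 higher and 5 lower of 12. Slpi, a secreted elastase inhibitor, rose by 1.27 ± 0.07 and Spink5, the kallikrein inhibitor of skin, by 0.82 ± 0.07, whereas Timp2 fell by 0.60 ± 0.04 and Timp1 fell by 0.40 ± 0.07.

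Collagen chains, the clients of the Serpinh1 protein, had 10 lower and 2 higher of 13 tested, with a median of -0.28, against 18.9% lower and 21.5% higher among all genes tested. Of the 13, Col1a1, Col5a1 and Col6a1 passed the filter through wild type only and so had to differ. Without these 3, 7 were lower and 2 higher of 10. Col5a1 fell by 1.92 ± 0.07, Col8a1 fell by 1.32 ± 0.05, Col1a1 fell by 1.29 ± 0.07 and Col5a3 fell by 0.91 ± 0.07. The folding list of the endoplasmic reticulum, which leaves Serpinh1 out, had 6 higher and 4 lower of 21, with a median of 0.04. Its collagen-modifying enzymes moved in both directions: P3h2, a prolyl 3-hydroxylase, rose by 0.69 ± 0.07, while the lysyl hydroxylase gene Plod2 fell by 0.55 ± 0.06. P3h4, which encodes a relative of the prolyl 3-hydroxylases without enzyme activity, fell by 0.41 ± 0.06. Hspa5, a general chaperone, rose by 0.59 ± 0.05.

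Summed normalised counts of the 8 fibroblast markers were 417 and 422 in wild type and 120 and 129 in E79Q, and those of the 5 muscle markers were 978 and 1021 against 310 and 290. Not all markers went this way. Col1a1, also a collagen chain of the list above, was the single fibroblast marker tested and carried most of the fibroblast sums in wild type. The muscle markers Acta2 (10.10 and 10.13 against 8.90 and 8.87) and Tagln were called lower, and Acta2 carried most of the muscle sums. Col1a1 and Tagln passed the filter through wild type only, so they had to differ. The untested fibroblast markers Dcn (6.98 in both wild-type libraries, 7.40 in both E79Q libraries) and Thy1 (7.04 and 7.11 against 7.31 and 7.24) and the muscle markers Myh11 (7.13 and 7.09 against 7.24 and 7.28) and Des (7.02 and 7.06 against 7.24 and 7.20) had higher values in E79Q. In bulk RNA fewer cells of a type and less RNA per cell cannot be told apart, and the part of such cells in the fall of Serpinh1 was not tested.

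Suprabasal and stressed squamous genes had 12 higher and 1 lower of 17 tested, with a median of 0.38, against 21.5% higher and 18.9% lower among all genes tested, and the other 4 were not called. Il1f9, an interleukin-36 gene, rose by 2.15 ± 0.07, though it passed the filter through E79Q only. Krt16, a keratin of stressed epithelium, rose by 1.27 ± 0.06, Krt6b by 0.80 ± 0.07 and Sbsn by 0.78 ± 0.06, whereas Anxa1 fell by 0.78 ± 0.05. The immune markers summed to 190 and 168 normalised counts in wild type and 377 and 415 in E79Q. Cd68, also a lysosomal gene of other cells, carried most of these sums. It was the single tested marker of the 7 and called higher (0.67 ± 0.07). Ptprc, Adgre1 and Cd3e were at the floor in all 4 libraries, and Lyz2, Csf1r and Itgam lay between 6.94 and 7.35. The part of immune cells in the values of Serpinb10, Serpinb9b and Serpinb1a, family members known from such cells, was not tested.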

How the data were processed

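Per the labels, RNA was taken up in TRIzol and libraries came from a NEBNext Ultra kit. The submitters' processing notes list mm9, DESeq2, DESeq 1.22.2, STAR 2.5.2b and Salmon 0.11.3, without roles. The sources used here give neither annotation nor strand setting. Values were deposited by the authors as variance-stabilised expression on a log2-like scale. For each gene, replicate 1 summed over both genotypes equals replicate 2 (within 1.31e-13), so the values were centred on the replicate number before deposit, a step no label records. The numbers pair the libraries for this reason, and the fit carries a replicate block.

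Genotype was tested with limma 3.58.1 (R 4.3.3; trend, two-sided, Benjamini-Hochberg) on 10857 genes. The prior degrees of freedom were 14.6, so precision is largely borrowed across genes. Normalised counts invert the stabilisation from the floor (6.98). They are approximate, because of the centring, and were set to 0 below it. In genes with reads in 1 library, the within-pair step was a whole multiple of 1 read in 100% of cases (tolerance 1e-06), which gave estimated depths of 12.6 to 15.2 M reads. On simulated data centred alike, the null share of raw p under 0.05 was 4.77% with the block and 23.7% without, for 10857 genes. The simulated noise was normal, independent between libraries and sized by the same fit, and 200 genes were changed. It compares fits with and without the block and cannot test whether the real p-values hold. Alternatives were no replicate block, filters, scalings, empirical Bayes options and leaving out each library. The last was fitted without the block, with a lone library assumed to vary like the other group. The symbol rule matched 64 rows, of which 1 is not reported here and enters no count of members. Named were the other tested members, untested members at least 0.2 above the floor, and up to 4 called genes of each list with the largest differences. Members and lists were chosen with earlier results of these data known. Genes outside this rule (Krt5 and the other cell type markers, Xist and the Y-linked genes, Anxa1, Ctsg, Gzmb and Elane) were named after their values were seen.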

Additional observations from a re-analysis of the deposited data

How the results depend on the processing

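All 116 results for tested members under the 11 alternatives kept their direction, and 106 also kept their side of the threshold. The block, filters and empirical Bayes options cannot change a difference. Leaving out a library only reweights both pair differences, which share a sign in every tested member. Only median centring and quantile normalisation could thus have reversed a direction. Serpinb10, Serpinb1a, Serpinb9b, Serpinb5 and Serpinh1 kept their calls wherever they were tested. Without the replicate block 6004 of all genes were called, and 4 members were lower in place of 2, with Serpinb6a (adjusted p = 0.00734) and Serpinb6b (0.0402) added; 8 members were called in all. The block changed no other member's call. The stricter filter left 6 members to test, of which 4 were called, 2 higher and 2 lower. Without any filter 8 members were called. Leaving out genes that passed the filter through 1 genotype only, chosen after seeing the data, left 5 called members (3 higher, 2 lower). Fits that left out a library lacked the block and had a lone library in 1 group, so their calls are not listed. Without the trend Serpinb8 was called higher (adjusted p = 0.0490). Partner genes called ranged from 53 to 72, against 63. Centring ties the libraries of a pair to each other, so leaving out 1 of them is not an independent check. Near the floor a few reads set a value, which limits the 19 untested members. The causes were not tested.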
